A study of Mus musculus with 16 samples.

Results

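The proteasome subunit genes of the mouse striatum were taken as the genes whose symbol starts with Psm, then a letter from a to g, then a number. Symbols of pseudogenes were removed. A further symbol that the selection leaves out is not analysed here. The selection gave 48 of the 17097 genes in the deposited values. By role, 8 genes encode the alpha ring of the 20S core particle, 7 its constitutive beta ring and 2 its inducible beta subunits (Psmb9 and Psmb10). The 19S regulatory particle has 17 genes here, of which 6 are ATPases of the base, 3 are other base subunits and 8 are lid subunits. Another 7 genes encode assembly chaperones and 6 encode activators or regulators. The last gene, Psmc3ip, matches by name alone, since its product is a cofactor of meiotic recombination and not a proteasome subunit, which leaves 47 proteasome genes. Counts, medians and quartiles over the 48 genes, or members, include Psmc3ip.

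The proteasome degrades proteins marked with ubiquitin. Its 20S core is a barrel of alpha and beta rings with the protease sites inside, and the 19S particle binds the ubiquitin chain, unfolds the substrate and feeds it into the core. Interferons induce alternative catalytic subunits and the activator subunits Psme1 and Psme2, which shift the peptides made toward those presented on class I molecules. When proteasomes fall short, the transcription factor encoded by Nfe2l1, paired with a small Maf protein, raises subunit genes together through antioxidant response elements.

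RNA was measured in the striatum of male wild-type C57BL/6J mice aged 63 days, 2 h after clozapine N-oxide (CNO, a ligand of designer receptors) at 1 mg/kg or after vehicle. From each mouse came an input library, made from the cleared tissue lysate, and an immunoprecipitate (IP) library, made from astrocyte ribosomes pulled down by a hemagglutinin tag. The 4 groups of 4 libraries are vehicle input, vehicle IP, CNO input and CNO IP, with replicates numbered 2 to 5 in the titles. The titles carry 8 mouse codes while the series text speaks of 4 mice; each code was taken as 1 animal, and if that is wrong the p-values cover only the spread between samples. The series title names astrocyte Gi signalling. The labels do not name the receptor, how it and the tag were delivered, or the promoter that drove them, and no group is labelled as CNO without the receptor.

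Depth per library lay between 32.8 and 40.3 M reads for input, where M stands for mega, and between 52.1 and 61.5 M for IP. Of 12 astrocyte markers, 12 were higher in IP than in input in vehicle mice, with a summed level of 31390 to 38047 CPM (reads of a gene per M reads of the normalized library) in IP against 3413 to 3723 CPM in input. All 12 microglial, all 10 medium spiny neuron and all 8 endothelial markers were lower in IP. Their summed levels in vehicle IP were 71.0 to 115, 2917 to 3330 and 19.03 to 27.9 CPM, so no list was at 0. Markers of interneurons (7 of 8), ependymal cells (6 of 6) and oligodendrocytes (5 of 8) were higher in IP, beside 37.7% of all genes. The pan-neuronal list was mixed, with 2 of 8 higher and 4 lower (median log2 ratio -0.18). Its summed level was 2771 to 3432 CPM in vehicle IP and 3715 to 4339 CPM in vehicle input. The pericyte list was mixed too, with 2 of 6 higher and 4 lower. These shifts accompany each difference between IP and input given here, and their part in it was not tested.

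The core and 19S genes were abundant in both kinds of RNA. Levels of different genes are compared as CPM per kb of transcript. In vehicle input the highest was Psmb6, the caspase-like catalytic subunit, at 160 CPM per kb, followed by Psmb4 at 100 and Psma7 at 93.1. The trypsin-like subunit gene Psmb7 stood at 90.6 and the chymotrypsin-like subunit gene Psmb5 at 53.5. The assembly chaperone genes lay lower, from 8.28 for Psmd9 to 18.9 for Psmg4. The lowest was Psma8, the testis form of an alpha subunit, at 0.26 CPM per kb. Among the alpha ring genes Psma3 (14.7) and Psma5 (10.2) were also low. Length here is the median over a gene's coding transcripts, so these levels depend on which transcripts the annotation lists.

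**Figure D1:**
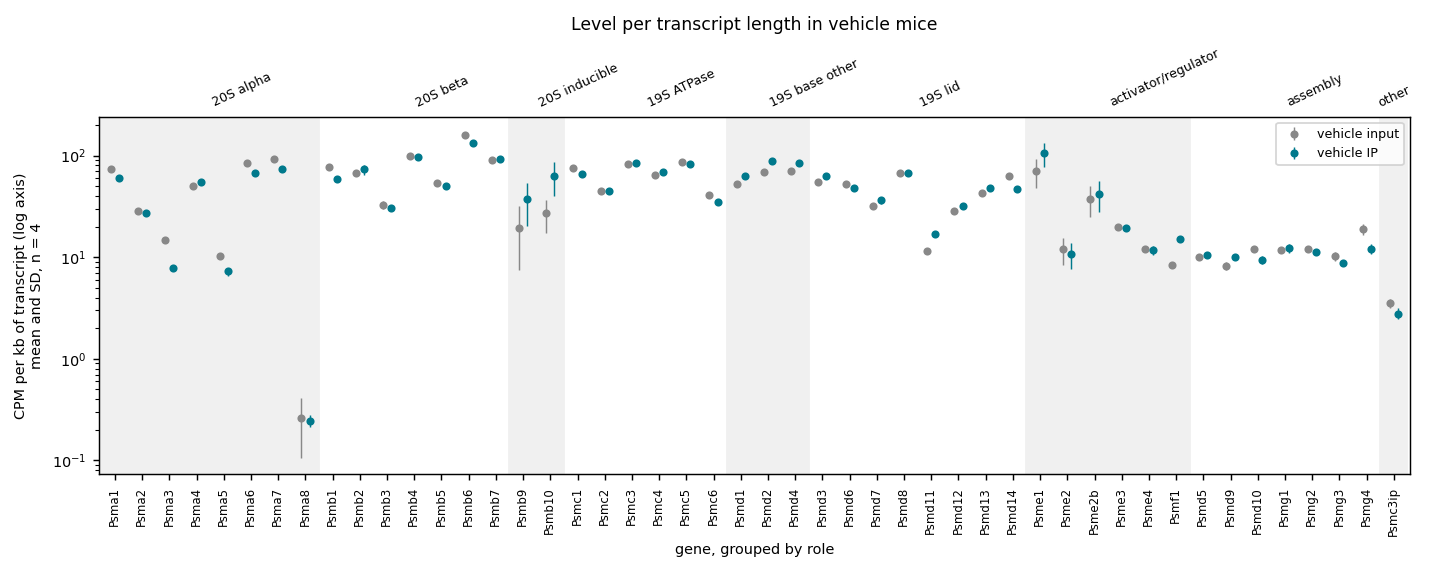
Level of each of the 48 genes in vehicle mice as CPM per kb of transcript on a log axis, with genes grouped by role along the horizontal axis. Points are means and bars the SD of 4 libraries, grey for input and teal for IP; Psma8 lies far below the rest and the inducible genes Psmb9, Psmb10, Psme1, Psme2 and Psme2b have the widest bars, joined by Psma8 in input.

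The RNAs of the proteasome genes differed in their ratio of IP to input, but less widely than genes at large. In vehicle mice the lower and upper quartiles of the log2 ratio were -0.22 and 0.17 over the 48 genes. Over all genes they were -0.57 and 0.58. Relative to input, Psmb10 and the inhibitor gene Psmf1 were higher, as were Psmd11 and Psmd2 of the 19S particle, and several core subunit genes, led by Psma3, were lower. In vehicle mice 12 members were called higher in IP (limma, adjusted p under 0.05 over all genes tested), where 37.7% of all genes were, and 14 were called lower, where 37.2% were. In CNO mice the counts were 18 higher, beside 40% of all genes, and 12 lower, beside 35%. Psmc3ip is among the lower calls in both kinds of mice. The median log2 ratio of IP to input over the 48 genes was -0.02 in vehicle mice and 0.05 in CNO mice, and over all genes 0.01 and 0.04. In bulk RNA a difference in the number of cells of a type and a difference in RNA per cell cannot be told apart.

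The direction of many of these ratios depends on how the libraries were scaled. The authors' normalization factors were 1.08 to 1.14 in input and 0.880 to 0.932 in IP. Scaling by upper quartiles moved the median of all genes by -0.15 and scaling by total reads by -0.27 in vehicle mice, and by -0.21 and -0.31 in CNO mice. All 14 lower calls in vehicle mice and all 12 in CNO mice held under the 3 scalings. Both other scalings move the ratios down, so a lower call could hardly be lost and only the higher calls were put to a test. Of the higher calls 4 held in vehicle mice (Psmb10, Psmf1, Psmd11 and Psmd2), and in CNO mice the same 4 with Psmb9 and Psme1. The share of all calls that were higher went from 50.3% to 40.8% and 34.2% in vehicle mice, and from 53.3% to 40.3% and 34.8% in CNO mice.

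**Figure D2:**
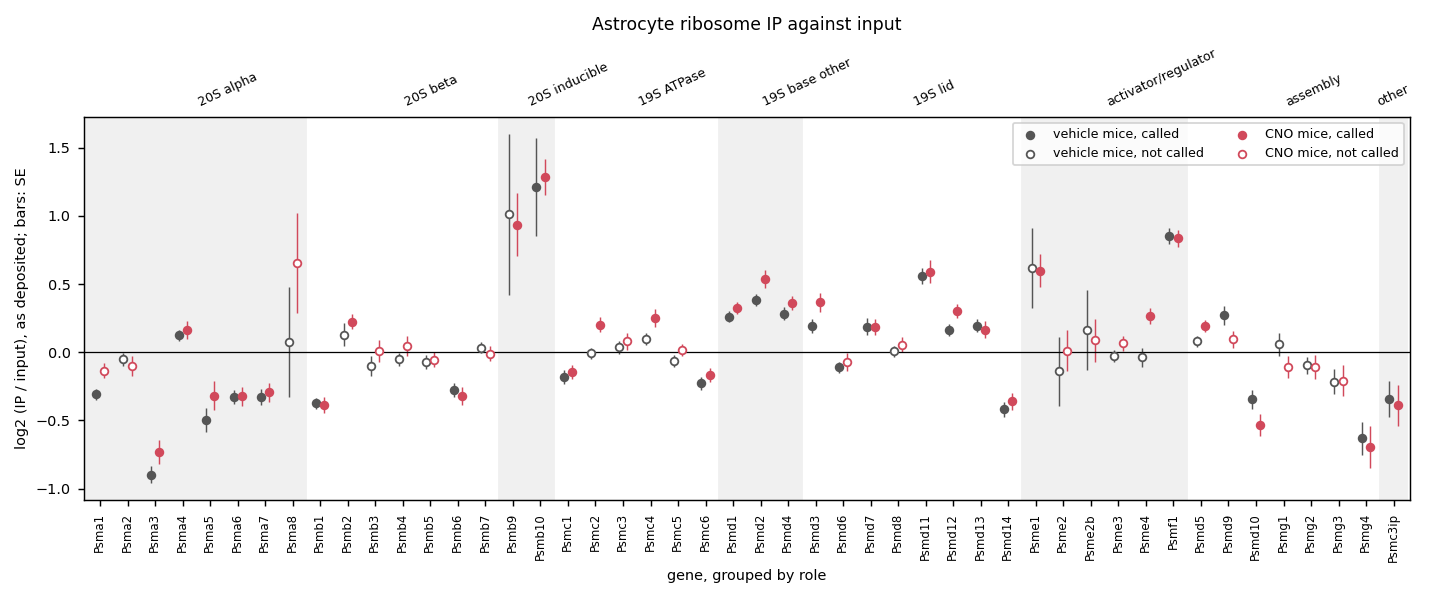
Log2 ratio of IP to input for each gene on the deposited scale, grouped by role, in vehicle mice (grey) and CNO mice (red), with SE bars and filled points where limma's adjusted p was under 0.05. Psma3 is lowest and Psmb10 highest; under total read scaling all points move down by about the shift of the median gene, -0.27 in vehicle and -0.31 in CNO mice, and the filled points that then lie below 0 although drawn above it include Psma4, Psmd12 and Psmd13.

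Among the 14 constitutive core genes other than Psma8, 7 were lower and 1 higher in vehicle IP, with a median log2 ratio of -0.19. In CNO mice 6 were lower and 2 higher, with a median of -0.12. The shares of all genes called lower and higher were 37.2% and 37.7% in vehicle mice, and 35% and 40% in CNO mice. The lowest of the core genes was Psma3, an alpha ring subunit. Its level in vehicle input was 26.9, 26.3, 28.1 and 27.5 CPM in replicates 2 to 5, against 15, 14.1, 13.5 and 15.8 CPM in vehicle IP. The groups did not overlap, and the IP level was below the input level of the same mouse in 8 of 8 mice. Psma3's log2 ratio was -0.90 ± 0.06 (SE; limma, adjusted p = 8.38e-07) in vehicle mice and -0.73 ± 0.09 (adjusted p = 2.55e-05) in CNO mice.

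Other alpha ring genes were lower in IP by smaller amounts. Psma5 had a log2 ratio of -0.49 in vehicle mice and -0.32 in CNO mice, and Psma6 had -0.33 and -0.32. Psma4 was the 1 alpha ring gene called higher, at 0.12 and 0.16 on the deposited scale, but it stood at -0.14 and -0.15 under total read scaling. Of the constitutive beta ring genes, Psmb1 was lower at -0.38 and -0.39.

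Of the 3 constitutive catalytic genes, only Psmb6 was called lower in IP as deposited. It stayed lower under the other scalings, which move the ratios down and so could hardly undo the call. Psmb6 was at 122, 128, 136 and 125 CPM in vehicle input and at 106, 102, 102 and 112 CPM in vehicle IP, with no overlap, and its log2 ratio was -0.28 ± 0.05 (limma, adjusted p = 0.000757). Psmb5, at -0.07 ± 0.05, and Psmb7, at 0.03 ± 0.04, did not pass the test in vehicle mice on the deposited scale. Under upper quartile and total read scaling Psmb5 stood at -0.23 and -0.34 and was called lower (limma, adjusted p = 0.00272 and 0.000411), and Psmb7 stood at -0.12 and -0.23. Differences between the 3 genes were not tested. In CNO mice Psmb6 was again lower, at -0.32, while Psmb5 and Psmb7 were at -0.05 and -0.01 and were not called. Psmb5, Psmb6 and Psmb7 have named pseudogenes in the annotation that could share their reads. Only pseudogenes named after a member's symbol were looked up, so any member may have others under a different name.

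Of the 17 genes of the 19S particle, 8 were higher and 4 lower in vehicle IP (median 0.10), and 10 were higher and 3 lower in CNO IP (median 0.18). Among all genes 37.7% were higher and 37.2% lower in vehicle IP, and 40% and 35% in CNO IP. The median of the 19S genes stood above that of the core genes in both kinds of mice. Another scaling moves all genes of a library alike and so keeps this gap. No test was made of it. Transcript length moved with it: the median length was 1.59 kb for the 19S genes and 1.12 kb for the core genes. Over all genes tested, the median log2 ratio in vehicle mice went from -0.41 for transcripts up to 1 kb to 0.18 for those over 3 kb, with a Spearman correlation of 0.19 across 14315 genes, which are not independent replicates. The part of length in the gap was not tested.

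Psmd2, a scaffold that binds ubiquitin-like domains of shuttle proteins, was at 198, 206, 194 and 211 CPM in vehicle input and at 259, 263, 265 and 269 CPM in vehicle IP. Every IP library lay above every input library, and the log2 ratio of Psmd2 was 0.38 ± 0.04 (limma, adjusted p = 2.73e-05), and 0.54 ± 0.06 (adjusted p = 1.94e-05) in CNO mice. Psmd4, a ubiquitin receptor, and Psmd1, the other large scaffold, were also called higher, at 0.28 and 0.26 in vehicle mice and at 0.36 and 0.32 in CNO mice. Neither of them kept its call under all 3 scalings in either kind of mice. Psmd1 stood at -0.01 in vehicle mice under total read scaling.

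The lid was split. Psmd11, which joins the lid to the core, was at 26.5, 23.6, 26.6 and 27.5 CPM in vehicle input and at 38.4, 37.5, 37.1 and 40.2 CPM in vehicle IP, with no overlap. The log2 ratio of Psmd11 was 0.56 ± 0.06 (limma, adjusted p = 1.65e-05) in vehicle mice and 0.59 ± 0.08 (adjusted p = 9.27e-05) in CNO mice. Psmd14, the enzyme that cuts ubiquitin chains off the substrate, went the other way, at -0.42 ± 0.06 and -0.36 ± 0.06, and was below input in 8 of 8 mice. Psmd13 and Psmd3 were called higher at 0.19 each in vehicle mice but stood at -0.07 each under total read scaling. Among the ATPases of the base none was called higher in vehicle mice, and Psmc6 (-0.23) and Psmc1 (-0.18) were lower. In CNO mice Psmc6 and Psmc1 were lower too, at -0.17 and -0.14, and 2 of 6 were called higher as deposited, Psmc2 (0.20) and Psmc4 (0.25), which stood at -0.11 and -0.06 under total read scaling.

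The largest ratio of IP to input belonged to Psmb10. Psmb10, the inducible form of the trypsin-like subunit, was at 30.4, 21.5, 38.1 and 52.0 CPM in vehicle input and at 86.9, 43.2, 85.1 and 118 CPM in vehicle IP. The groups overlapped, since the lowest IP library lay below the highest input library, but within each of the 8 mice IP was 2.01 to 2.86 times input. The log2 ratio of Psmb10 was 1.22 ± 0.36 (limma, adjusted p = 0.0149) in vehicle mice and 1.29 ± 0.14 (adjusted p = 1.36e-05) in CNO mice.

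Psmb9, the inducible form of the caspase-like subunit, was at 25.1, 8.90, 23.3 and 48.3 CPM in vehicle input and at 57.1, 18.8, 52.6 and 73.5 CPM in vehicle IP. Its groups overlapped as well, and its log2 ratio of 1.01 ± 0.59 did not pass the test in vehicle mice (limma, adjusted p = 0.152). With the mouse as a block, which compares IP and input of the same animal, the same ratio for Psmb9 passed (adjusted p = 2.46e-05), and IP was 1.52 to 2.28 times input in 8 of 8 mice. In CNO mice Psmb9 was called higher at 0.94 ± 0.23. Without vehicle input replicate 3 the vehicle ratio of Psmb9 was 0.57, and without vehicle IP replicate 3 it was 1.43 and passed (adjusted p = 0.0442). Psmb9 overlaps Tap1 in the annotation, and without a known strand setting reads of such pairs may be shared. The same holds for 10 other members that overlap a named gene: Psma6, Psmb7, Psmc3, Psmc3ip, Psmd1, Psmd13, Psmd5, Psmd9, Psme1 and Psme2b. Psma2, Psma3, Psma4, Psma5, Psmb5, Psmb10, Psmc5, Psmd3, Psmd12, Psmd14, Psme4 and Psmg3 overlap only genes of provisional or microRNA name, with the same limit.

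Psme1, the alpha subunit of the interferon-inducible activator, was 1.40 to 1.64 times higher in IP in 8 of 8 mice. Its log2 ratio was 0.62 ± 0.29 (limma, adjusted p = 0.0864) in vehicle mice, where the mouse block gave an adjusted p of 4.52e-06, and 0.60 ± 0.12 (adjusted p = 0.00103) in CNO mice. In vehicle mice Psme1 passed without vehicle IP replicate 3 (0.82, adjusted p = 0.0276) or vehicle input replicate 5 (0.79, adjusted p = 0.0441), and was at 0.38 without vehicle input replicate 3. Psme2, its partner in the same ring, was at -0.14 ± 0.25 and 0.01 ± 0.15 and was not called. Psme2b is a near copy of Psme2, so reads of the pair may be divided between them.

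Psmf1, an inhibitor of the core that competes with its activators, had a steady excess. It was at 22.1, 23.1, 21.2 and 20.5 CPM in vehicle input and at 40.8, 36.6, 40.1 and 39.6 CPM in vehicle IP. All IP libraries were above all input libraries, and the log2 ratio of Psmf1 was 0.85 ± 0.06 (limma, adjusted p = 6.84e-07) and 0.84 ± 0.06 in CNO mice. The nuclear activator gene Psme3 was not called in either, at -0.03 and 0.06, and it stood at -0.25 in CNO mice under total read scaling.

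Of the 7 assembly chaperone genes 2 were lower and 1 higher in IP in each kind of mice. Beside them, 37.2% of all genes were lower and 37.7% higher in vehicle mice, and 35% and 40% in CNO mice. Psmg4, which helps assemble the alpha ring, was lower at -0.63 ± 0.12 in vehicle mice and -0.69 ± 0.15 in CNO mice, and Psmd10, a chaperone of the 19S base, at -0.35 ± 0.07 and -0.53 ± 0.08. Psmd9, another base chaperone, was the 1 chaperone gene called higher in vehicle mice, at 0.27 as deposited, a call that did not hold under all 3 scalings. Psmd5 was the 1 in CNO mice, at 0.19 as deposited and at -0.12 under total read scaling. Psmc3ip was lower at -0.35 and -0.39.

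The relative level of inducible and constitutive catalytic genes can be read within a library from CPM per kb. Psmb9 stood at 4.10 to 22.8% of Psmb6 in the 8 input libraries, with a median of 11.9%, and at 10.9 to 38.6% in the 8 IP libraries, with a median of 29.0%. Psmb10 stood at 18 to 43.9% of Psmb7 in input (median 28.8%) and at 35.6 to 94.8% in IP (median 69.2%). In vehicle replicate 5 the IP levels of Psmb10 and Psmb7 were thus almost equal per kb, while in vehicle replicate 3 Psmb10 stood at 35.6% of Psmb7.

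The spread between vehicle mice was wider in the inducible genes than in the abundant subunits. The SD of log2 CPM over the 4 vehicle input libraries was 0.42 to 1.01 for Psmb9, Psmb10, Psme1, Psme2 and Psme2b, against 0.02 to 0.12 (median 0.06) for the 31 genes of the 19S particle and the constitutive core without the scarce Psma8. Psma8 itself had an SD of 0.76. The median over all genes was 0.12. In vehicle IP the ranges were 0.41 to 0.87 and 0.02 to 0.17. All 5 inducible genes were lowest in vehicle replicate 3 and highest in vehicle replicate 5, in input and in IP. Among CNO mice all 5 were highest in replicate 3, in input and in IP, and their SD was 0.20 to 0.42 in input and 0.15 to 0.34 in IP. The 31 genes had 0.04 to 0.22 in CNO input, which overlaps the inducible range, and 0.01 to 0.14 in CNO IP. Of the 31, 28 were highest in vehicle IP replicate 5 and 9 in vehicle input replicate 5, while 22 were highest in CNO input replicate 3 and 15 in CNO IP replicate 3. In vehicle input 6 of the 31 were lowest in replicate 3 and 17 in replicate 2.

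**Figure D3:**
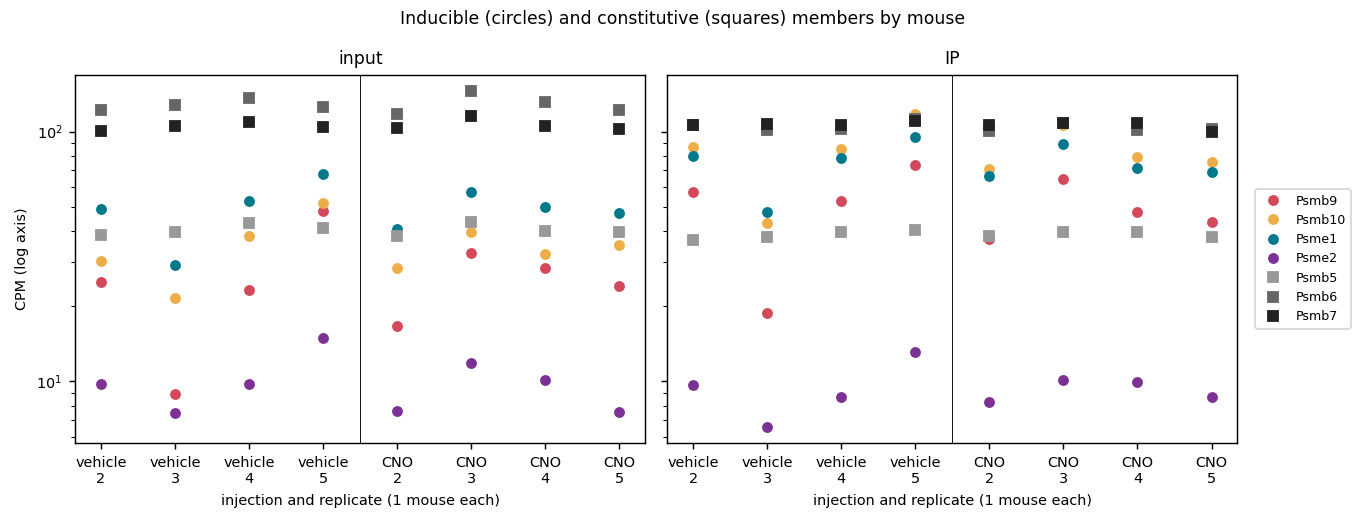
CPM on a log axis by mouse, input at left and IP at right, for the inducible genes Psmb9, Psmb10, Psme1 and Psme2 (circles) and the constitutive catalytic genes Psmb5, Psmb6 and Psmb7 (squares); each column is 1 mouse. The circles drop in vehicle replicate 3, where Psmb9 is at 8.90 CPM in input, and peak in vehicle replicate 5, where Psmb9 is at 48.3 CPM in input, while the squares stay nearly level.

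Among genes of the interferon response and antigen presentation list, B2m, the light chain of class I molecules, also differed between the mice. It was at 623, 229, 584 and 970 CPM in vehicle input replicates 2 to 5, lowest in replicate 3 and highest in replicate 5, as the inducible proteasome genes were. Microglial markers differed between the input libraries as well: their summed level ranged from 892 to 2340 CPM in vehicle input and from 71.0 to 115 CPM in vehicle IP. Their part in the spread of the inducible genes was not tested.

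After CNO a small number of members were called higher in the astrocyte ribosome fraction, a share little above that of all genes. None of the inducible genes passed the test. Their SE was 0.19 to 0.39, against 0.04 to 0.08 for the called genes, so the test could not show a rise of that size in them. In CNO IP 7 of 48 members (14.6%) were called higher than in vehicle IP, where 10.2% of all genes tested were, and 0 were called lower, where 7.08% were. A further 4 had an unadjusted p under 0.05 without passing (Psmc4, Psma8, Psmd9 and Psmg2), which makes 11, and limma-voom on the solved reads also called 7 higher and 0 lower. The median log2 difference over the members was 0.05 and over all genes -0.01. On the deposited scale 59.2% of all calls in this comparison were higher, and 39.3% and 44.5% under upper quartile and total read scaling; 4 of the 7 members (Psmc2, Psmd11, Psmd12 and Psme4) were called under all 3 scalings. By role, 4 of 17 genes of the 19S particle and 1 of 14 of the constitutive core other than Psma8 were called, with medians of 0.08 and 0.03. The 7 genes were spread over roles: Psmc2, Psmd11, Psmd12 and Psmd2 in the 19S particle, Psma1 in the alpha ring, the activator Psme4 and the chaperone Psmd5.

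Psmc2, an ATPase of the 19S base, was at 76.2, 80.6, 78.5 and 82.8 CPM in vehicle IP and at 95.8, 98.5, 93.6 and 101 CPM in CNO IP. Every CNO library lay above every vehicle library. The log2 difference was 0.29 ± 0.04 (SE; limma, adjusted p = 0.00161), a 1.22-fold rise. Psmc2 lies at chr5:21785283-21803787 on the plus strand (GRCm38).

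Psmd12, a lid subunit, was at 59.1, 61.1, 59.4 and 64.2 CPM in vehicle IP and at 71.3, 72.0, 74.6 and 77.8 CPM in CNO IP, again without overlap. Its log2 difference was 0.28 ± 0.05 (limma, adjusted p = 0.00285). Psmd12 lies at chr11:107479484-107504362 on the plus strand. In input Psmd12 was at 53.7, 55.1, 56.4 and 52.3 CPM after vehicle and at 58.5, 59.9, 57.4 and 64.1 CPM after CNO; the libraries did not overlap there either, but the difference of 0.14 ± 0.05 did not pass over all genes (adjusted p = 0.387).

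Psmd11, its neighbour in the lid, went from 38.4, 37.5, 37.1 and 40.2 CPM in vehicle IP to 46.2, 45.3, 44.6 and 47.3 CPM in CNO IP, with no overlap. The log2 difference of Psmd11 was 0.26 ± 0.04 (limma, adjusted p = 0.00288). These 3 genes, Psmc2, Psmd12 and Psmd11, kept their call under all 15 alternatives computed, with log2 differences between 0.20 and 0.31. Psmd11 in CNO input was at 36.9 CPM in replicate 2 and between 28.3 and 28.8 CPM in the others.

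The other 4 calls were less steady. Psma1, an alpha ring subunit that was lower in IP than in input in vehicle mice, rose from 63.8, 66.5, 62.8 and 66.5 CPM to 72.2, 75.5, 76.6 and 72.3 CPM, a log2 difference of 0.19 ± 0.04 (limma, adjusted p = 0.0103) that was lost under upper quartile scaling (adjusted p = 0.0558). Psme4, the gene of a large activator linked to acetylated histones, was at 71.9, 70.9, 75.2 and 86.7 CPM in vehicle IP and at 83.5, 94.8, 99.5 and 96.9 CPM in CNO IP. Vehicle replicate 5 lay above CNO replicate 2, so the groups overlapped. The log2 difference of Psme4 was 0.30 ± 0.08 (adjusted p = 0.0285) and lost its call in 7 of 15 alternatives, among them the omission of replicate 3, 4 or 5 from CNO IP and of replicate 2, 3 or 4 from vehicle IP (highest adjusted p = 0.0899).

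Psmd5, a chaperone of the 19S base, rose by 0.15 ± 0.04 on the log2 scale (limma, adjusted p = 0.0252) and lost its call in 8 of 15 alternatives. Psmd2 rose by 0.13 ± 0.04 (adjusted p = 0.0411) and lost it in 11 of 15, with adjusted p up to 0.223. Both were lost under the other scalings, and when replicate 2, 3 or 4 of CNO IP, or replicate 2 or 4 of vehicle IP, was left out; Psmd2 was also lost when replicate 5 of CNO IP or replicate 3 of vehicle IP was. Psmd9, at -0.12 and not called on the deposited scale, was called lower under upper quartile scaling (-0.17, adjusted p = 0.0396) and total read scaling (-0.16, adjusted p = 0.0498).

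**Figure D4:**
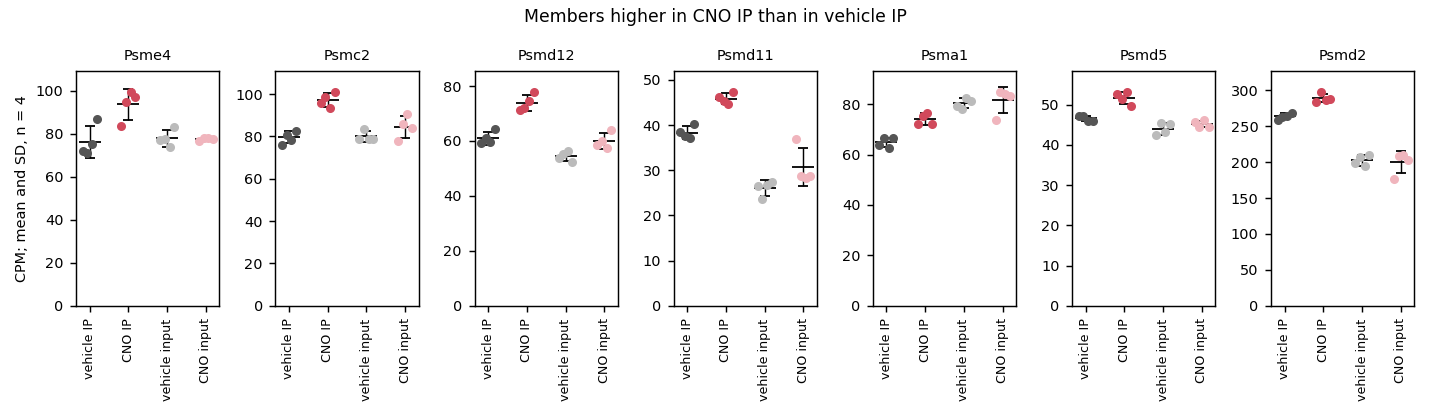
CPM of the 7 genes called higher in CNO IP than in vehicle IP, each library as a point and mean with SD (n = 4) in black, on axes that start at 0. In Psmc2, Psmd12, Psmd11, Psma1, Psmd5 and Psmd2 the CNO IP points lie above all vehicle IP points, and in Psme4 they overlap; Psmd2 and Psmd5 lose their call under other scalings.

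The catalytic genes did not pass the test for CNO in IP. Psmb5 differed by 0.01 ± 0.04, Psmb6 by -0.03 ± 0.05 and Psmb7 by -0.02 ± 0.04 on the log2 scale. Psmb9 differed by 0.07 ± 0.39 and Psmb10 by 0.07 ± 0.28, so the mouse-to-mouse spread leaves a wide range for them. Without vehicle IP replicate 3, Psmb9 was at -0.35 (limma, adjusted p = 0.253) and Psmb10 at -0.22 (adjusted p = 0.411), and without vehicle IP replicate 5 they were at 0.30 and 0.26. Psma8 had the largest difference whatever the test, 0.66 ± 0.23 at under 1 CPM (adjusted p = 0.0902), and Psmc3ip the lowest, -0.17 ± 0.15.

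In input 0 of 48 members were called higher or lower with CNO, by limma and by limma-voom, and 3 had an unadjusted p under 0.05 (Psmd11, Psmd12 and Psmd7). Of all genes 0.815% were called higher and 0.183% lower there. The largest member difference was that of Psmd11, 0.23 ± 0.09 (limma, adjusted p = 0.441), and it was 0.14 without CNO input replicate 2.

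Whether CNO acted differently in IP and in input was tested as an interaction over the 16 libraries. It was called for 0 members by limma and by limma-voom, where 4.18% of all genes were called higher and 0.572% lower, and 3 members had an unadjusted p under 0.05. The largest difference in size was that of the scarce Psma8, 0.58 ± 0.55 (limma, adjusted p = 0.777). Psme4 was at 0.30 ± 0.09 (adjusted p = 0.0798) and Psmc2 at 0.21 ± 0.07 (adjusted p = 0.101). With the mouse as a block the same 0.30 for Psme4 passed (adjusted p = 0.0209). Psme4 also passed without CNO IP replicate 2 (0.36, adjusted p = 0.0245) and without vehicle IP replicate 5 (0.37, adjusted p = 0.01), and Psmc2 without CNO input replicate 4 (0.25, adjusted p = 0.0435).

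Some cell type markers differed with CNO. Of the astrocyte list 2 of 12 were lower in CNO IP (Gja1 and S100b), and of the pericyte list 1 of 6 (Pdgfrb, in IP and in input). Among all genes tested 7.08% were lower with CNO in IP and 0.183% in input. The log2 differences of the pericyte list in IP ran from -1.31 to 0.52, and its summed level was 98.9 to 114 CPM in CNO IP and 144 to 165 CPM in vehicle IP, without overlap. The ependymal list had a median difference of -0.36 in IP, with 0 of 6 called and sums of 152 to 193 CPM after CNO and 190 to 264 CPM after vehicle. The endothelial list had medians of -0.33 in IP, with 0 of 8 called, and -0.42 in input, where 2 of 8 were lower (Cldn5 and Slco1a4), with the list's summed level at 99.5 to 123 CPM after CNO and 136 to 149 CPM after vehicle. In IP that sum was 18.2 to 19.7 CPM after CNO and 19.03 to 27.9 CPM after vehicle. The astrocyte sum was 32694 to 36243 CPM in CNO IP and 31390 to 38047 CPM in vehicle IP. Transcript length moved weakly with the CNO difference in IP (Spearman 0.14 over all genes, 0.38 over the 48 members, across genes). The part of these in the 7 calls was not tested.

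Genes that work with the proteasome were looked up from fixed lists. Of 16 partners found, 3 rose with CNO in IP and 0 fell (median 0.04). Among all genes tested 10.2% were called higher and 7.08% lower there. Adrm1, a ubiquitin receptor of the 19S particle, was at 14.0, 13.6, 15.4 and 13.5 CPM in vehicle IP and at 16, 16.8, 16.9 and 17.3 CPM in CNO IP, without overlap, and rose by 0.25 ± 0.06 (limma, adjusted p = 0.0203). Txnl1, a thioredoxin bound to the 19S particle, rose by 0.27 and Zfand5, a zinc finger protein that stimulates proteasomes, by 0.23. Usp14, the ubiquitin protease of the 19S particle, was at 0.13 ± 0.07 and Pomp, the assembly factor of the core, at -0.01 ± 0.06; neither passed. Of 7 genes of the p97 segregase, which pulls proteins out of complexes for degradation, 1 rose (Ubxn4, by 0.17). In IP against input, 6 of those 7 p97 genes were higher as deposited, with a median log2 ratio of 0.60 in vehicle mice, led by Vcp at 0.82. The 16 partners went more often the other way, with 5 higher and 9 lower in vehicle IP (median -0.21). Among all genes 37.7% were higher and 37.2% lower in vehicle IP.

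Of 8 genes that control proteasome transcription, 3 rose with CNO in IP, beside 10.2% of all genes. All 3 were small Maf genes, whose proteins pair with the factors from Nfe2l1 and Nfe2l2. Maff was at 4.10, 1.93, 3.52 and 4.84 CPM in vehicle IP and at 228, 207, 203 and 244 CPM in CNO IP, a log2 difference of 6.01 ± 0.25 (limma, adjusted p = 9.25e-07). Mafk rose by 1.5 ± 0.17 and Mafg by 0.48 ± 0.09. In input Maff rose by 4.10 and Mafk by 0.57. Nfe2l1 was at 339, 333, 343 and 360 CPM in vehicle IP and 341, 329, 326 and 363 CPM in CNO IP, with a difference of -0.02 ± 0.05, and Nfe2l2 differed by -0.15 ± 0.12; neither passed. Of the 8 interferon list genes 0 were called with CNO, although their differences in IP ran from 0.10 to 0.78 (median 0.42); in input they ran from -0.09 to 0.64 (median 0.17). In IP against input 5 of the 8 were higher in vehicle mice (median 1.37) and 8 of 8 in CNO mice (median 1.5). The shares of all genes called higher there were 37.7% and 40%.

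Promoter windows of RefSeq (GRCm38.p6, 250 bases before to 50 after the start) were found for 40 of the 48 genes and searched on both strands. The core of the antioxidant response element, TGANNNNGC, was in 22 of the 40 (55%), and in 45.1% of all genes with a window. It was in 4 of the 7 genes raised by CNO in IP (Psmc2, Psmd12, Psme4 and Psmd5) and in 18 of the other 33. The stricter TGACNNNGC, whose matches are also matches of the first, was in 6 of 40 (15%), Psmb5, Psmb6, Psmc6, Psmd12, Psmd9 and Psme4, and in 14.0% of all genes. CCAAT was in 14 (35%) against 41.1%, the cyclic AMP response element TGACGTCA in 0 against 2.03%, and the heat shock motif GAANNTTC in 3 (7.5%) against 9.04%. The core of the interferon-stimulated response element, searched after the values had been seen, was in 5 (12.5%) against 3.99%. These were Psmb3, Psmd4, Psmd9, Psme1 and Psmg4, of which only Psme1 is an inducible gene. Psmb9 and Psme2 have windows and were without this motif. The gamma-activated site TTCNNNGAA, added in the same way, was in 2 (5%, Psmd2 and Psmg1) against 9.55%. A match is a description of letters in a window.

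Upstream sequence is shown for Psmd12, which rose with CNO in IP, and for the catalytic genes Psmb5 and Psmb6, which carry the same stricter motif and were not called. Capitals mark the matches to the core motif on either strand, each line runs 5′ to 3′ on the strand of the gene, and bases within annotated exons of the gene were left out. The Psmd12 stretch is chr11:107479278-107479483, plus strand, the Psmb6 stretch chr11:70525107-70525356, plus strand, and the Psmb5 stretch chr14:54618023-54618245, minus strand. The match starts 247 bases before the RefSeq start in Psmd12, 47 in Psmb5 and 9 in Psmb6.
Psmd12: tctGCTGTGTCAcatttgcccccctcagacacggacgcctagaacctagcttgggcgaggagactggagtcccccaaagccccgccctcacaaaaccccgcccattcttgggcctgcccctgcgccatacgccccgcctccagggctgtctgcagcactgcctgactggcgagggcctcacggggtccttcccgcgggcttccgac
Psmb5: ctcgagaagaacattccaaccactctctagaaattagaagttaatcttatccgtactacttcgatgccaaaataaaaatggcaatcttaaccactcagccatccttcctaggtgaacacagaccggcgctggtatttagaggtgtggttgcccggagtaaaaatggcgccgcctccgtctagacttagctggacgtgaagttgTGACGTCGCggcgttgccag
Psmb6: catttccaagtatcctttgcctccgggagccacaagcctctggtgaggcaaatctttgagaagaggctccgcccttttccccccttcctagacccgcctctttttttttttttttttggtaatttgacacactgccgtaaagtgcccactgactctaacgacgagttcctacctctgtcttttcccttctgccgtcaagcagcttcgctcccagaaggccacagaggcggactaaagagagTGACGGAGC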

How the data were processed

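The deposited values are log2 CPM per gene and library; per the submitters' processing notes bcl2fastq 2.17, STAR, HTSeq and limma were used with mm10. No source used here gives the strand setting or the gene annotation. The low values showed that the authors added a prior count averaging 0.25 reads and used normalized library sizes; solving for reads gave whole numbers for 100% of values (tolerance 0.01). Genes with 15 reads in all and, in 4 libraries, the CPM of 10 reads in the median library were tested with limma 3.58.1 (trend and robust), with Benjamini-Hochberg adjustment over all genes tested and a threshold of 0.05. The limma step was also run on simulated data, with the same dispersion for every gene and independent libraries. These data differ in both, so that run does not cover genes of wide spread or the link between IP and input of a mouse. All 48 members passed the filter. IP and input of 1 mouse deviated together (correlations 0.18 to 0.55), so the mouse block was run as an alternative. Lengths, coordinates and overlaps come from GENCODE (GRCm38) and promoters from RefSeq. Members, lists and tests were chosen with earlier results of these data known. Named in each comparison were the called members of largest change, at most 3 a role and direction, the largest difference each way, the catalytic genes, Adrm1, Pomp, Usp14, Nfe2l1 and Nfe2l2, and called genes of the lists. Other scalings, limma-voom, another pseudocount, no filter, plain moderation, blocks and leaving out each library were tried. Results that need withheld items are not reported here.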

Additional observations from a re-analysis of the deposited data

Results flagged for a closer look

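In groups of 4 libraries, the highest or lowest was set against the gap to its neighbour (Dixon's 95% criterion). Of 192 member and group pairs, 9 stood out, and chance gives about 1 in 20. In CNO input, replicate 2 stood apart for Psma1 (73.9 CPM, others 83.3 to 84.9), Psmd11 (36.9 CPM, others 28.3 to 28.8) and Psmd8 (92.3 CPM, others 105 to 107). Replicate 3 of CNO input stood apart for Psma6 (90.9 CPM, others 74.5 to 75.9) and Psmb2 (60.1 CPM, others 56.5 to 57.0). Psmd7 was high in replicate 5 of vehicle IP (65.1 CPM, others 54.7 to 55.7) and of CNO IP (67.9 CPM, others 59.4 to 60.3). In vehicle input, Psmc2 was high in replicate 3 (83.7 CPM, others 78.6 to 79.0) and Psmg2 low in replicate 2 (13 CPM, others 14.4 to 14.7).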

How the results depend on the processing

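Library scaling had the widest effect; it moves every gene of a library alike. Higher calls with CNO in IP went from 7 to 4 under upper quartile scaling, and lower calls from 0 to 1 under upper quartile and 1 under total read scaling (Psmd9). For IP against input in vehicle mice, higher calls were 6 and 4 and lower calls 27 and 30. In CNO mice they were 9 and 6, and 26 and 31. Calls over all genes moved the same way. Of those in vehicle mice 40.8% and 34.2% were higher, against 50.3% as deposited. In CNO mice 40.3% and 34.8% were, against 53.3%. With CNO in IP, 39.3% and 44.5% of all calls were higher, against 59.2% as deposited. Sign changes of values called before or after the change were found in IP against input and in no other comparison. In vehicle mice, total read scaling gave Psma4 -0.14, Psmb7 -0.23, Psmc3 -0.23, Psmc4 -0.17, Psmd1 -0.0074, Psmd12 -0.10, Psmd13 -0.072, Psmd3 -0.073, Psmd5 -0.19, Psmd7 -0.080 and Psmd8 -0.26, and upper quartile scaling Psma4 -0.031, Psmb7 -0.12, Psmc3 -0.12 and Psmd8 -0.15. In CNO mice, total read scaling gave Psma4 -0.15, Psmb2 -0.089, Psmb3 -0.30, Psmb4 -0.27, Psmc2 -0.11, Psmc3 -0.24, Psmc4 -0.064, Psmc5 -0.30, Psmd12 -0.012, Psmd13 -0.15, Psmd5 -0.12, Psmd7 -0.13, Psmd8 -0.26, Psmd9 -0.22, Psme3 -0.25 and Psme4 -0.045, and upper quartile scaling Psma4 -0.051, Psmb3 -0.20, Psmb4 -0.17, Psmc2 -0.011, Psmc3 -0.14, Psmc5 -0.20, Psmd13 -0.049, Psmd5 -0.021, Psmd7 -0.031, Psmd8 -0.16 and Psme3 -0.15. Of the gene values under all alternatives, 3555 kept direction and call, 78 lost a call, 59 gained one and 292 changed sign. Of the last, 42 were called before or after the change and are given here; the other 250 were called on neither, and 53 of those were differences with CNO in IP, 65 with CNO in input and 93 interactions.

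Leaving out 1 library gave 4 to 7 higher and 0 to 0 lower calls with CNO in IP, 12 to 16 higher and 12 to 14 lower for IP against input in vehicle mice, 16 to 19 and 9 to 14 in CNO mice, and 0 to 1 higher interaction calls. With all libraries in, 10.2% of all genes were called higher and 7.08% lower with CNO in IP. For IP against input these shares were 37.7% and 37.2% in vehicle mice and 40% and 35% in CNO mice. For the interaction 4.18% were called higher. With the mouse as a replicate block, IP against input gave 15 higher and 15 lower calls in vehicle mice and 18 and 13 in CNO mice, and the interaction 1 higher call. CNO and vehicle mice share only a replicate number (correlations -0.17 to 0.18 in IP, 1 of 4 best with its own number, and -0.31 to 0.03 in input, 0 of 4); a block on that number left 5 higher calls in IP. The cause of these changes was not tested. With 4 mice a group, precision is least for the inducible genes, and Psma8 is limited by depth.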
